A study of Mus musculus with 48 samples.

Results

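RNA levels were compared between control and Bmal1-knockdown mouse fibroblasts at the phase of the circadian cycle when RNA of the targeted gene is low in the control. The comparison held the total RNA libraries taken at 24, 26, 44 and 46 h, 4 from the line labelled shCTRL and 4 from the line labelled shBmal1, 8 of the 48 libraries in the series. The hours were chosen with the control pattern known: Arntl, the symbol under which the tables list Bmal1, was low and output genes such as Dbp were high. Both lines were NIH 3T3, an immortalised mouse embryonic fibroblast line whose cells keep circadian time in culture. The shCTRL line was labelled as the control and the shBmal1 line as the one with a short hairpin against Bmal1, with no other allele named. Cells of both lines grew in medium with fetal bovine serum and were synchronised for 2 h in medium with 50% horse serum. Each culture also gave a library of newly made RNA, labelled with the uridine analogue 4sU and pulled down, so the total RNA came from 4sU-treated cells too. The labels give 1 line of each kind and do not say whether it was a clone. Each line had 1 library per hour, so every error below measures the spread over 4 hours of single libraries, not over independent lines or cultures.

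In the circadian clock, BMAL1 and CLOCK bind DNA together at E-box sequences and switch on genes of the period, cryptochrome and REV-ERB families. The period and cryptochrome proteins then hold BMAL1 and CLOCK back. REV-ERB proteins repress the Bmal1 gene and ROR proteins activate it, both through the same response element. A further arm works through D-box sequences, which the activators DBP, TEF and HLF share with the repressor NFIL3. Loss of BMAL1 is known to lower E-box targets and, through REV-ERB, to relieve genes under REV-ERB repression.

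The promoters of Dbp, Nr1d2, Nr1d1 and Per3 are shown, because these 4 clock genes had the lowest shBmal1 level relative to shCTRL and the elements above can be searched in them. The hours were chosen with output genes such as Dbp high in the control. The place here of Dbp, and of clock genes that cycle with it, is not independent of that choice. Each run is a RefSeq sequence of the GRCm38.p6 build, 250 bases before to 50 after an annotated start, written 5′ to 3′ on the strand of the gene. Capitals mark matches, on either strand, to the E-box CACGTG, the E-prime box CACGTT, the D-boxes TTATGTAA, TTACGTAA and TTATGCAA, and the REV-ERB element AGGTCA. Dbp is at chr7:45704997-45705296 on the plus strand, Nr1d2 at chr14:18239057-18239356, Nr1d1 at chr11:98775328-98775627 and Per3 at chr4:151044616-151044915, the last 3 on the minus strand.
Dbp: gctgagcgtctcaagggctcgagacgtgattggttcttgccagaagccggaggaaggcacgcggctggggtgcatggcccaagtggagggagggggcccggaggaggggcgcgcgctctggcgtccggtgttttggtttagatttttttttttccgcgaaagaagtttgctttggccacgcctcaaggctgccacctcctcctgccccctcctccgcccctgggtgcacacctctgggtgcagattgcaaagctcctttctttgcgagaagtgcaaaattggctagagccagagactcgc
Nr1d2: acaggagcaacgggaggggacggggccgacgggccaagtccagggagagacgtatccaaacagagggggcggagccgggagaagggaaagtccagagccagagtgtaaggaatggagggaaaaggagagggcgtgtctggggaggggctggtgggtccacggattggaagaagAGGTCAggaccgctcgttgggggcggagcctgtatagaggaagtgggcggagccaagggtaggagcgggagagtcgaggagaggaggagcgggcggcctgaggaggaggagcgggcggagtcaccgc
Nr1d1: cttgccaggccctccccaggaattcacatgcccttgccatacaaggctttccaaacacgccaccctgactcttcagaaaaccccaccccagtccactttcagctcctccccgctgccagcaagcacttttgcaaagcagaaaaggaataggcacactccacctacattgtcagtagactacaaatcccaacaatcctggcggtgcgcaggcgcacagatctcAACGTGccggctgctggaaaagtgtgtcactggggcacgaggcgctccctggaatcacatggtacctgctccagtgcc
Per3: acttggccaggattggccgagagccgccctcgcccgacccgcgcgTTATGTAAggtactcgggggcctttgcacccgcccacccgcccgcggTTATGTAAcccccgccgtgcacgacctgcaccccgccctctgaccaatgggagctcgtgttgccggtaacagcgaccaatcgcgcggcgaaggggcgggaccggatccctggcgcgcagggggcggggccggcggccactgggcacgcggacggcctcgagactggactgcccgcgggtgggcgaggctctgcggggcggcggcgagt
The Nr1d1 window held 1 E-prime box, with its first base 28 bases before the start. The Per3 window held 2 D-boxes, beginning 205 and 158 bases before the start, and the Nr1d2 window 1 REV-ERB element, 77 bases before it. The Dbp window held none of these letters, which says nothing of sites elsewhere in the gene. Tef, a further clock gene that was lower, was added after its E-box was seen and is shown from chr15:81802423-81802722 on the plus strand.
Tef: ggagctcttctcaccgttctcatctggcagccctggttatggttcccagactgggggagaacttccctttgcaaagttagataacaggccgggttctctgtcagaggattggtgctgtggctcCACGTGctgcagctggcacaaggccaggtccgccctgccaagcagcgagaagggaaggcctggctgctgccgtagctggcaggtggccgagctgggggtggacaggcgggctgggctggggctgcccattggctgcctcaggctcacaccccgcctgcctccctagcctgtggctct
Its second annotated start had an E-box as well. Among the 32851 windows of this length in the table, 7.15% held the E-box, 4.68% the E-prime box, 0.938% TTATGTAA, 0.119% TTACGTAA, 0.743% TTATGCAA and 16.3% the REV-ERB element. A match describes letters and not a bound site.

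Depth was 68334042 to 76260143 reads in the shCTRL libraries and 50977879 to 66214875 in the shBmal1 libraries, recovered from the steps between deposited values. Levels below are exon RPKM, reads per kilobase of transcript scaled to the read total, as deposited, in the order 24, 26, 44 and 46 h. The line difference is shBmal1 minus shCTRL on the log2(scaled RPKM + 0.1) scale, with the standard error of a limma fit in which each hour had its own baseline. It understates changes of low genes. The shBmal1 library at 46 h stood apart: 64 genes lay over 1.5-fold above the other 3 libraries of its line, against 5 to 11 genes for each of the other 7 libraries. Genes of the integrated stress response were among them, named here after their values were seen. Chac1, a glutathione-degrading enzyme, was at 18.4, 18.2, 23.4 and 144 RPKM in shBmal1 and 11.2 to 16.3 in shCTRL. Trib3, a pseudokinase induced by the stress factor ATF4, was at 15.4, 16.3, 13.6 and 65.4 RPKM in shBmal1 and 6.70 to 9.21 in shCTRL.

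Arntl RNA was not lower in the shBmal1 libraries at this phase. The shCTRL libraries held 1.29, 2.25, 4.02 and 3.13 RPKM and the shBmal1 libraries 2.36, 3.60, 3.62 and 4.22. The lines overlapped, and shBmal1 was the higher at 3 of 4 hours. The line difference was 0.34 ± 0.145 (adjusted p = 0.0830 in limma). It was 0.62 at 24 and 26 h alone and 0.52 without 44 h, past the threshold in both (0.00213 and 0.0109). With RPKM as deposited it was 0.44 and passed (0.0399). Fits at 24 and 26 h alone or at 44 and 46 h alone, here and below, leave 1 residual degree of freedom. Low Arntl in the control was part of the choice of hours, so the Arntl differences and p-values are not independent of that choice. The level of the targeted gene therefore does not check the labels at these hours. At the opposite phase, 32, 34, 36 and 38 h, shCTRL held 14.5 to 17.2 RPKM and shBmal1 3.96 to 5.00, a line difference of -1.88 ± 0.0757. Arntl lies on chromosome 7 from 113178471 to 113314126.

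The comparison asked how the knockdown line differs from the control when clock output is high. Of 10924 genes tested, 105 (0.961%) were higher and 176 (1.61%) lower in shBmal1, at an adjusted p under 0.05 in limma and a line difference of at least 1 in size. By the adjusted p alone, 2793 (25.6%) were higher and 2715 (24.9%) lower. These shares are the background for each list count below in total exon RNA over the 4 hours, and not for other comparisons or settings. With the RPKM left as deposited, 3896 genes were higher and 1959 lower. That made 66.5% of the genes that passed higher, against 50.7% after scaling, and list counts in that setting are to be read beside this shift. Past both thresholds, 155 genes were higher and 293 lower at 24 and 26 h alone, and 99 and 142 at 44 and 46 h alone. In 2082 genes (19.1%) all 4 shBmal1 libraries lay above all 4 shCTRL libraries after scaling, and in 2101 (19.2%) below. For 71 of the 281 genes past both thresholds the 2 lines had been divided by different or unknown transcript lengths, so the largest changes are named only among genes with 1 length.

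Of the 18 clock genes tested, 12 fell and 2 rose, and 6 of those that fell did so by at least 1 on the log2 scale. Output genes such as Dbp were high in the control at these hours by choice. The counts, and the differences and p-values of clock genes that cycle with or against Dbp, are therefore not independent of that choice. Clock, the partner of BMAL1, was at 1.51, 1.80, 2.31 and 2.10 RPKM in shCTRL and 1.44, 1.61, 1.71 and 1.80 in shBmal1. It was slightly lower in shBmal1 at each hour, by a line difference of -0.30 ± 0.0978 (adjusted p = 0.0317 in limma), and missed the threshold without 26, 44 or 46 h (0.0873, 0.128 and 0.0664) or with RPKM as deposited (0.108). Arntl2, the paralog of Arntl, was at 0.399 to 0.535 RPKM in shCTRL and 0.468 to 0.761 in shBmal1 and did not pass (adjusted p = 0.197 in limma). Npas2 was not analysed here.

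**Figure D1:**
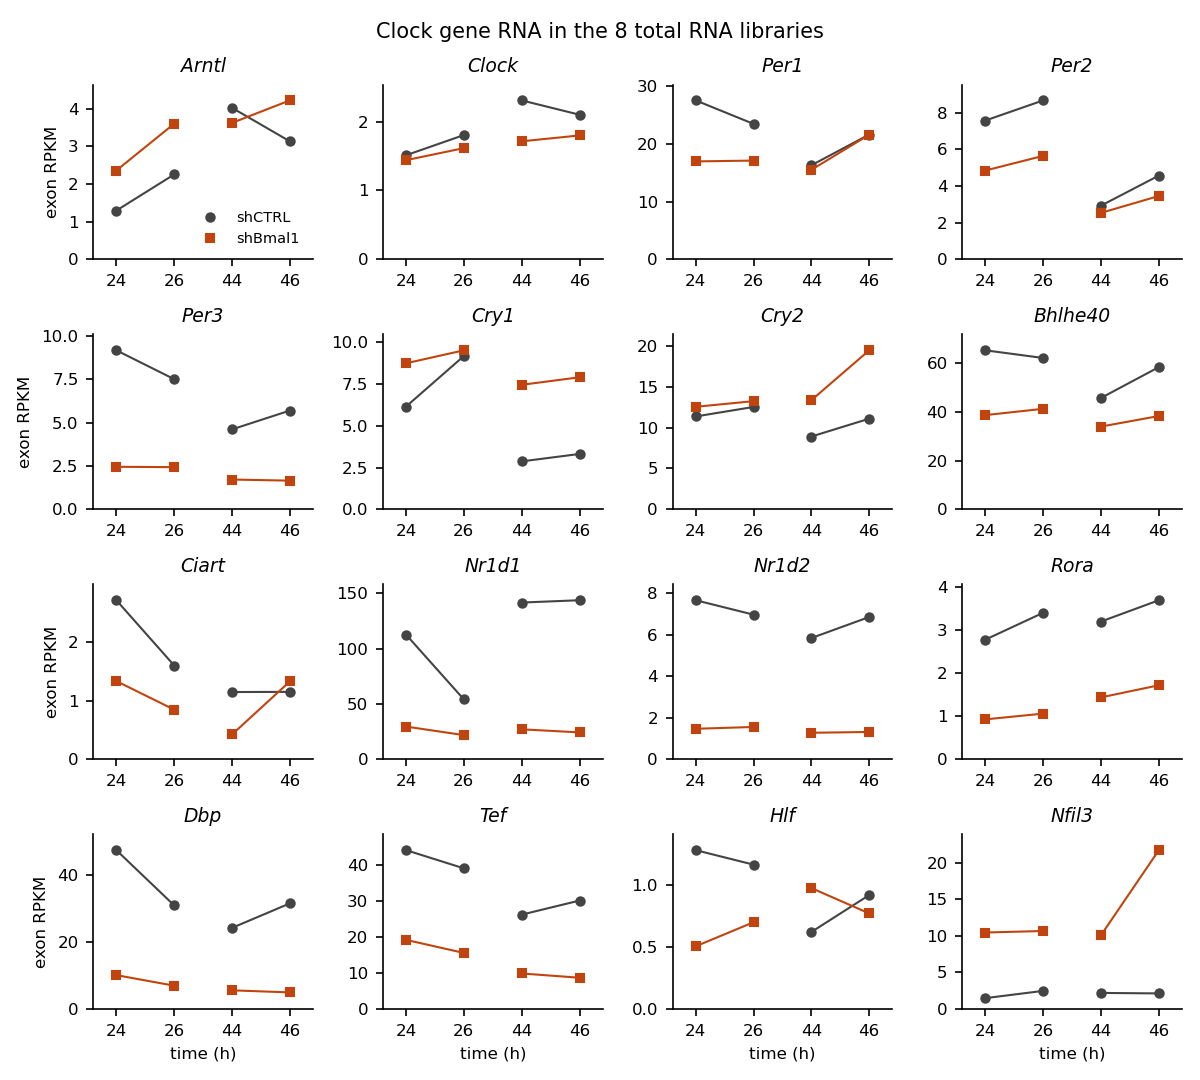
Exon RPKM of 16 clock genes in the 8 total RNA libraries (vertical axis, from 0) at 24, 26, 44 and 46 h (horizontal axis), with shCTRL as grey circles and shBmal1 as orange squares; line segments join only neighbouring hours. The values of Per3, Bhlhe40, Nr1d1, Nr1d2, Rora, Dbp, Tef and Nfil3 do not overlap between the lines, those of Cry2 are apart only before scaling, and those of the other 7 genes overlap.

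The period genes fell unequally. Per3 was at 9.16, 7.50, 4.61 and 5.69 RPKM in shCTRL and 2.45, 2.43, 1.71 and 1.65 in shBmal1. Every shBmal1 library lay below every shCTRL library, and the line difference was -1.74 ± 0.0979 (adjusted p = 1.94e-05 in limma). Per2 was at 7.57, 8.67, 2.93 and 4.57 RPKM in shCTRL and 4.84, 5.64, 2.53 and 3.45 in shBmal1. It was lower at each hour, by -0.56 ± 0.0960 (adjusted p = 0.00223 in limma), although the ranges overlapped. Per1 was at 27.5, 23.4, 16.3 and 21.6 RPKM in shCTRL and 17.0, 17.1, 15.5 and 21.6 in shBmal1, a line difference of -0.40 ± 0.117 (adjusted p = 0.0214 in limma). The gap lay at 24 and 26 h: at 44 and 46 h alone the difference was -0.12, and the call was lost without 24 or 26 h (0.0697 and 0.0807) or with RPKM as deposited (0.0520).

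The cryptochromes, which repress BMAL1 and CLOCK together with the period proteins, did not fall. Cry1 was at 6.15, 9.18, 2.87 and 3.31 RPKM in shCTRL and 8.74, 9.52, 7.45 and 7.90 in shBmal1, higher by 0.68 ± 0.204 (adjusted p = 0.0241 in limma). The shBmal1 levels changed little over the hours while the shCTRL levels were lower at 44 and 46 h, and the call was lost without 44 or 46 h (0.0874 and 0.0776). Cry2 was at 11.4, 12.5, 8.91 and 11.1 RPKM in shCTRL and 12.6, 13.2, 13.4 and 19.5 in shBmal1, with a difference of 0.30 ± 0.125 that did not pass (adjusted p = 0.0756 in limma). It passed at 44 and 46 h alone (0.61, adjusted p = 0.000241), without 26 h (0.42, 0.0344) and with RPKM as deposited (0.40, 0.0241), and at 24 and 26 h alone it was -0.013.

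Other repressors of E-box genes all fell, 3 of 3. Bhlhe40 (DEC1), which competes for E-boxes, was at 65.4, 62.3, 45.8 and 58.5 RPKM in shCTRL and 38.8, 41.3, 34.0 and 38.4 in shBmal1. No shBmal1 library reached the lowest control, and the line difference was -0.69 ± 0.0676 (adjusted p = 0.000174 in limma). Bhlhe41 (DEC2) was at 1.99 to 2.72 RPKM in shCTRL and 1.52 to 1.94 in shBmal1, a difference of -0.55 ± 0.0979. Ciart (CHRONO) was at 2.72, 1.6, 1.15 and 1.15 RPKM in shCTRL and 1.34, 0.848, 0.423 and 1.33 in shBmal1. Its shBmal1 library at 46 h was the exception, above the shCTRL library of that hour. The difference of Ciart was -0.81 ± 0.218 with that hour and -1.12 without it (adjusted p = 0.0159 and 0.000822 in limma), and the call was lost without 24 or 44 h (0.0610 and 0.0586).

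The nuclear receptors of the clock all fell, 3 of 3 tested. Nr1d1 (REV-ERB alpha) was at 113, 54.0, 142 and 144 RPKM in shCTRL and 29.5, 21.8, 27.0 and 24.2 in shBmal1. The shBmal1 libraries varied little and all lay below the lowest control, and the line difference was -2.15 ± 0.173 (adjusted p = 8.68e-05 in limma). Nr1d2 (REV-ERB beta) was at 7.67, 6.97, 5.84 and 6.86 RPKM in shCTRL and 1.47, 1.55, 1.27 and 1.31 in shBmal1, a difference of -2.30 ± 0.0830 (5.68e-06 in limma). Rora, which activates through the element that REV-ERB occupies, was at 2.78, 3.4, 3.20 and 3.69 RPKM in shCTRL and 0.925, 1.06, 1.44 and 1.72 in shBmal1, a difference of -1.41 ± 0.122 (0.000114 in limma). RNA of the repressors and of the activator of 1 element was thus lower together. Rorb was not analysed here.

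In the D-box arm, 2 activators fell and the repressor rose. Dbp was at 47.6, 31.0, 24.3 and 31.6 RPKM in shCTRL and 10.2, 7.0, 5.61 and 5.00 in shBmal1, a line difference of -2.37 ± 0.0936 (adjusted p = 7.01e-06 in limma). The hours were chosen with Dbp high in the control, so its difference and p-value are not independent of that choice. Tef was at 44.1, 39.1, 26.2 and 30.1 RPKM in shCTRL and 19.2, 15.6, 9.89 and 8.70 in shBmal1, a difference of -1.52 ± 0.0913 (2.62e-05 in limma). Neither gene overlapped between the lines. Hlf, the remaining activator, was at 1.28, 1.16, 0.620 and 0.917 RPKM in shCTRL and 0.505, 0.698, 0.973 and 0.769 in shBmal1 and did not pass (0.169 in limma). Its difference was -1.03 at 24 and 26 h alone (adjusted p = 0.00103) and 0.10 at 44 and 46 h alone, and it passed without 44 h (-0.79, 0.020). Nfil3, the repressor, was at 1.5, 2.49, 2.21 and 2.14 RPKM in shCTRL and 10.5, 10.7, 10.1 and 21.7 in shBmal1, the largest rise among the clock genes. The line difference of Nfil3 was 2.46 ± 0.188 (adjusted p = 6.79e-05 in limma) and 2.21 without 46 h. In RPKM, Nfil3 lay far below Dbp and Tef in each shCTRL library and above Dbp in each shBmal1 library.

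Among 6 tested genes listed as repressed by REV-ERB, 2 rose and 3 fell, and without 46 h 1 rose and 1 fell. With RPKM as deposited there were 3 higher and 1 lower. After scaling, Nfil3 and Cry1 rose, and Clock and the chemokine gene Ccl2 (-0.44 ± 0.0884) were among those that fell. Of 8 enzymes that modify or degrade clock proteins, 0 rose and 1 fell, the kinase gene Gsk3b (-0.41 ± 0.0939). Csnk1d and Csnk2a1, casein kinase genes, had line differences of -0.13 ± 0.0540 and 0.093 ± 0.0590 and did not pass. Of 19 clock output genes, 5 rose and 7 fell, with a median of -0.12 against 0.0081 over all genes tested. At 24 and 26 h alone the outputs had 3 higher and 9 lower, at 44 and 46 h alone 5 higher and 4 lower, and with RPKM as deposited 6 higher and 6 lower. Ypel2, Pik3ip1 and Klf9 led that list, with differences of -0.74 ± 0.129, -0.69 ± 0.148 and -0.67 ± 0.121. Klf9, a hormone-responsive transcription factor, was at 16.2, 17.3, 16.9 and 18.2 RPKM in shCTRL and 8.82, 9.98, 11.9 and 16.8 in shBmal1, so the gap was small at 46 h. Id2, an inhibitor of basic helix-loop-helix factors, rose (0.65 ± 0.102).

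A direct test asked whether the line difference at these hours differed from that at 32, 34, 36 and 38 h, in 16 libraries and without a size threshold. Of 10922 genes tested, 9 (0.0824%) had a more positive and 11 (0.101%) a more negative line difference at the low phase in limma, and 513 had an unadjusted p under 0.05. The hours were picked from the control rhythm of Arntl and Dbp, so the clock genes among the 20 describe that choice and are not independent support. They were Arntl and Nfil3 on the positive side and Dbp, Per2, Tef, Nr1d2, Per3, Per1 and Bhlhe40 on the negative side. Dbp had a line difference of -2.37 at the low phase and -0.32 ± 0.0946 at the opposite one, where it was at 4.39 to 5.54 RPKM in shCTRL and 3.33 to 4.88 in shBmal1. The control level was then close to the shBmal1 level. Tef went from -1.52 to -0.041 ± 0.0810, with 7.60 to 10.5 RPKM in shCTRL and 7.94 to 9.65 in shBmal1 at the opposite phase. Per2 and Per1 changed sign, from -0.56 and -0.40 to 0.94 ± 0.149 and 0.57 ± 0.0879. Nfil3 went from 2.46 to 0.26 ± 0.0937, where shCTRL held 7.99 to 10.0 RPKM and shBmal1 10.5 to 12.4. For Dbp, Tef and Nfil3 the mean shCTRL level moved between the phases by more than the mean shBmal1 level.

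**Figure D2:**
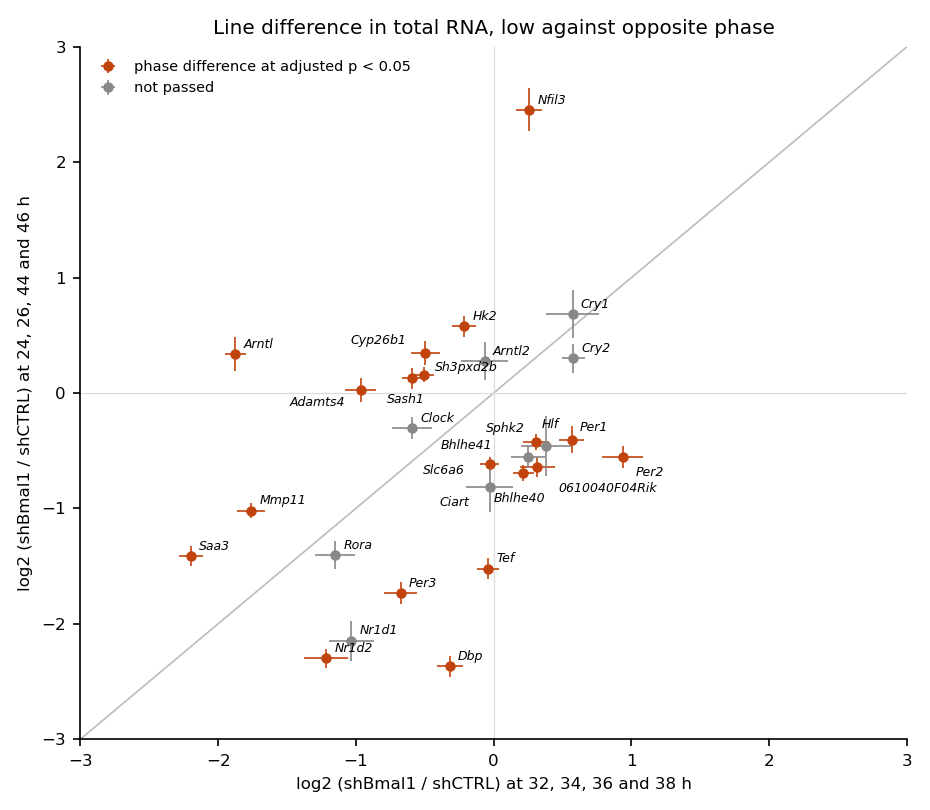
Log2 line difference of shBmal1 over shCTRL at 24, 26, 44 and 46 h (vertical axis) against that at 32, 34, 36 and 38 h (horizontal axis), for the clock genes and the other named genes whose difference between phases passed (orange; grey did not pass); points are limma estimates, bars standard errors, and the diagonal marks equal differences. Dbp and Tef lie far below the diagonal near 0 on the horizontal axis, and Arntl and Nfil3 far above it.

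Outside the clock lists, 4 genes were more negative and 7 more positive at the low phase. The sphingosine kinase gene Sphk2, the taurine transporter gene Slc6a6 and 0610040F04Rik were among the first, with differences between phases of -0.73 ± 0.120, -0.59 ± 0.0909 and -0.96 ± 0.152. Slc6a6 was at 58.5, 57.7, 46.2 and 50.5 RPKM in shCTRL and 39.9, 41.9, 35.3 and 31.9 in shBmal1 at the low phase, and at 34.8 to 38.8 and 35.9 to 42.3 at the opposite one. Hk2, the hexokinase of the first step of glycolysis, was at 4.09, 5.00, 5.97 and 5.99 RPKM in shCTRL and 7.23, 8.21, 7.60 and 10.9 in shBmal1, higher by 0.58 ± 0.0907. At the opposite phase its line difference was -0.22 ± 0.0885, a difference between phases of 0.79 ± 0.130. Cyp26b1, which degrades retinoic acid, and Adamts4, an aggrecan-cleaving protease, had differences between phases of 0.84 ± 0.156 and 0.99 ± 0.15. Adamts4 was at 0.978 to 1.33 RPKM in shCTRL and 1.12 to 1.46 in shBmal1 at the low phase, and at 2.79 to 3.54 and 1.55 to 1.87 in the opposite one, so the lines overlapped at the low phase and not at the opposite one.

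Saa3, an acute phase protein, and Mmp11, a stromal matrix protease, were lower in shBmal1 at both phases and less so at the low one (-1.41 against -2.20 ± 0.0863, and -1.02 against -1.76 ± 0.102). Sash1 and Sh3pxd2b, a podosome scaffold, did not pass at the low phase and had line differences of -0.59 ± 0.0685 and -0.50 ± 0.0716 at the opposite one. Over 18 alternative settings, the calls of Arntl, Nfil3 and Dbp were kept in each. Those of Tef and Bhlhe40 were lost in 1, those of Per2 and Per3 in 2, and those of 12 others in 3 to 11 settings, with Adamts4 tested in 17. Of the 20 calls, 7, 11, 5 and 7 were lost without 24, 26, 44 or 46 h, and 2, 5, 12 and 9 without 32, 34, 36 or 38 h, each with its direction kept. With their adjusted p in limma, those lost without 46 h were Nr1d2 (0.116), Sphk2 (0.0806), Slc6a6 (0.0508), Sash1 (0.0508), Mmp11 (0.161), Hk2 (0.0817) and Cyp26b1 (0.191). Nr1d1 had a difference between phases of -1.11 ± 0.270 and did not pass (adjusted p = 0.272 in limma).

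Among genes with 1 transcript length, Mymx and Aspn fell most outside the clock. Mymx, a microprotein of myoblast fusion, was at 6.30, 6.27, 3.97 and 3.87 RPKM in shCTRL and 0.743, 0.784, 1.13 and 0.784 in shBmal1, a line difference of -2.51 ± 0.199 (adjusted p = 8.14e-05 in limma). Aspn, a small matrix proteoglycan, was at 2.05 to 3.07 RPKM in shCTRL and 0.310 to 0.598 in shBmal1 (-2.45 ± 0.123). Both were thinly covered, with as few as 32 and 43 reads in a library. Their shBmal1 means were 0.861 and 0.460 RPKM, so they met the minimum mean of 1 RPKM for naming only through the shCTRL libraries. Aldh3a1, an aldehyde dehydrogenase, was at 43.5, 60.8, 62.0 and 72.5 RPKM in shCTRL and 11.9, 11, 17.9 and 15.4 in shBmal1 (-2.18 ± 0.114). Tmsb4x, the actin-sequestering thymosin beta 4, was at 83.2, 89.7, 74.2 and 85.9 RPKM in shCTRL and 23.3, 27.4, 20.4 and 19.5 in shBmal1 (-1.98 ± 0.0721). Both genes were abundant and had a gap at every hour. Plet1 and its antisense partner Plet1os fell by 2.22 and 1.87 on the log2 scale, the latter with as few as 23 reads in a library. Plet1os had a shBmal1 mean of 0.733 RPKM, so it too met that minimum only through the shCTRL libraries. Plet1 and Plet1os overlap on chromosome 9, and how strand entered the counting was not stated, so their reads may not be told apart. Nos2, the inducible nitric oxide synthase, was at 2.45, 2.83, 5.41 and 5.66 RPKM in shCTRL and 0.316, 0.375, 2.24 and 2.39 in shBmal1. Its gap at 24 and 26 h was wider on the log2 scale (-2.71 and -2.72, against -1.31 and -1.30 at 44 and 46 h) and narrower in RPKM. With Dbp, Nr1d2 and Nr1d1 these were the 10 largest falls. The ranks of Dbp, Nr1d2 and Nr1d1 are not independent of the choice of hours.

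Prl2c3 and Prl2c2, proliferin genes of the prolactin family, rose most. Prl2c3 was at 2.13, 3.15, 0.827 and 0.949 RPKM in shCTRL and 34.8, 36.2, 6.14 and 7.47 in shBmal1, a line difference of 3.17 ± 0.180 (adjusted p = 2.11e-05 in limma). Both lines held more of it at 24 and 26 h than at 44 and 46 h. Prl2c2 rose by 2.83 ± 0.143. These genes are near-identical paralogs, on chromosome 13 from 12790816 to 12800093 and from 12996120 to 13005393, so the share of each is uncertain. Ptgs2, the prostaglandin synthase COX-2, was at 4.83, 5.74, 5.81 and 5.70 RPKM in shCTRL and 17.2, 17.6, 15.7 and 28 in shBmal1, a difference of 1.68 ± 0.126 and 1.51 without 46 h. Krt14, a basal keratin, was at 4.32, 4.22, 2.09 and 2.54 RPKM in shCTRL and 13.6, 12.4, 8.92 and 7.97 in shBmal1 (1.61 ± 0.0993), and the keratin gene Krt80 rose by 1.57 ± 0.0912. All 4 shBmal1 libraries of each lay above the controls. Gna15, a G protein subunit, Gm50147, Atg9b, an autophagy lipid scramblase, and 4833427G06Rik rose by 1.94, 1.73, 1.71 and 1.58. With Nfil3 they made up the 10 largest rises, and the rank of Nfil3 is not independent of the choice of hours. Gna15, Gm50147 and 4833427G06Rik were thinly covered, with as few as 32, 16 and 38 reads in a library. Their shCTRL means were 0.450, 0.876 and 0.694 RPKM, so they met the minimum mean for naming only through the shBmal1 libraries. At the opposite phase the line differences were -1.95 ± 0.174 for Mymx, -2.26 ± 0.0789 for Aldh3a1, -2.09 ± 0.0680 for Tmsb4x, 3.11 ± 0.165 for Prl2c3 and 1.68 ± 0.0938 for Ptgs2, and none of these 5 passed the test between phases.

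The p53 targets and the G2/M genes rose more often than the 25.6% of all genes. Of 17 p53 targets 13 rose and 1 fell, with a median line difference of 0.58. Btg2, an antiproliferative gene, was at 6.03, 5.79, 5.44 and 5.34 RPKM in shCTRL and 25.1, 17.4, 16 and 15.1 in shBmal1 (1.56 ± 0.0960). Sesn2, a stress sensor upstream of mTORC1, rose by 1.19 ± 0.0989, and Mdm2, the ubiquitin ligase of p53, by 0.80 ± 0.0813. Sesn1, a related sestrin, went the other way (-0.59 ± 0.0910). Of 23 G2/M genes 11 rose and 1 fell, with a median of 0.25. At 24 and 26 h alone 13 were higher and 1 lower, and at 44 and 46 h alone 6 and 2. Without the hour as a factor 1 was higher. Aurka, a mitotic kinase, was at 14.3, 13.3, 7.87 and 7.2 RPKM in shCTRL and 36.1, 32.6, 14.1 and 13.0 in shBmal1 (0.97 ± 0.0944), and Ube2c and Cdk1, a mitotic ubiquitin-conjugating enzyme and kinase, rose by 0.86 ± 0.0784 and 0.84 ± 0.0863. Mki67, the proliferation marker, was the member that fell (-0.54 ± 0.115).

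Of 23 cytosolic ribosomal protein genes 18 rose and 0 fell, with a median of 0.37. Rpl27, Rpl10a and Rpl19 led with 0.67 ± 0.165, 0.56 ± 0.0932 and 0.52 ± 0.0557. These genes have near-identical pseudogene copies, so their counts are uncertain. Of 18 oxidative phosphorylation genes 10 rose and 1 fell, with a median of 0.28. Cox5b and Uqcrq, subunits of complexes IV and III, rose by 0.59 ± 0.0641 and 0.52 ± 0.0543. The member that fell was Ndufa4, from 41.9 to 46.6 RPKM in shCTRL to 18.3 to 26.6 in shBmal1 (-1.11 ± 0.0793).

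Matrix genes fell more often than the 24.9% of all genes. Of 20 extracellular matrix genes 10 fell and 3 rose, with a median of -0.30. Dcn, the collagen-binding proteoglycan decorin, was at 87.0, 109.8, 136 and 149.5 RPKM in shCTRL and 29.7, 46.9, 68.0 and 68.6 in shBmal1 (-1.32 ± 0.0913), and Thbs1, thrombospondin 1, had -1.15 ± 0.118. Lox, a collagen crosslinker, Tnc, tenascin C, and Col5a1, a fibrillar collagen chain, rose by 0.62 ± 0.0841, 0.75 ± 0.215 and 0.28 ± 0.0661. Of 19 genes of cholesterol and fatty acid synthesis 0 rose and 7 fell. Acly, which makes cytosolic acetyl-CoA, was at 168, 154, 139.8 and 136 RPKM in shCTRL and 67.5, 62.1, 57.2 and 44.1 in shBmal1 (-1.48 ± 0.0695), and Hmgcs1 and Cyp51, enzymes of cholesterol synthesis, had -0.41 ± 0.0600 and -0.41 ± 0.0597. With RPKM as deposited this list had 3 higher and 6 lower.

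The remaining lists were mixed, and the balance of several moved with the hours or the scaling. All genes shifted toward higher with RPKM as deposited. For 24 and 26 h or 44 and 46 h alone, no all-gene share by the adjusted p stands beside the list counts. Those counts describe the members only. Of 16 inflammatory genes 4 rose and 6 fell, with 3 higher and 12 lower at 24 and 26 h alone and 6 higher and 5 lower at 44 and 46 h alone. Tlr2, a sensor of microbial lipoproteins, was at 64.0, 61.7, 36.7 and 40.7 RPKM in shCTRL and 15.8, 17.5, 21.9 and 21.6 in shBmal1 (-1.47 ± 0.207), Saa3 had -1.41 ± 0.0871 and the complement gene C3 -1.13 ± 0.144, while Ptgs2 rose. Of 17 immediate early genes 5 rose and 3 fell (6 fell without 46 h), led by Btg2, Fosl1 (0.69 ± 0.143) and Ier3 (0.57 ± 0.0662). This list had 5 higher and 6 lower at 24 and 26 h alone, 6 higher and 1 lower at 44 and 46 h alone and 8 higher and 1 lower with RPKM as deposited. Of 13 glucocorticoid and FOXO stress genes 2 rose and 4 fell, among them Ddit4, an mTORC1 inhibitor (0.84 ± 0.0938), and Foxo3 (-0.44 ± 0.0813). Its balance turned over, with 2 higher and 7 lower at 24 and 26 h alone, 5 higher and 2 lower at 44 and 46 h alone and 4 higher and 1 lower with RPKM as deposited. Of 20 NRF2 targets 7 rose and 3 fell (1 fell without 46 h), with Hmox1, heme oxygenase 1, at 0.98 ± 0.0634, Nqo1 at 0.55 ± 0.0586 and Fth1, ferritin heavy chain, at -0.67 ± 0.0630. Of 17 unfolded protein response genes 7 rose and 3 fell, with 8 higher and 5 lower at 24 and 26 h alone and 2 higher and 3 lower at 44 and 46 h alone. Trib3 and Chac1 had 1.35 ± 0.288 and 1.16 ± 0.387 with 46 h and 0.89 and 0.53 without it, past the threshold in either case. The Chac1 call was lost without 24 or 26 h (0.101 and 0.10), without the hour as a factor (0.161) and without trend and robust variance (0.0603). Edem1, which sends misfolded glycoproteins to degradation, had -0.80 ± 0.0602.

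**Figure D3:**
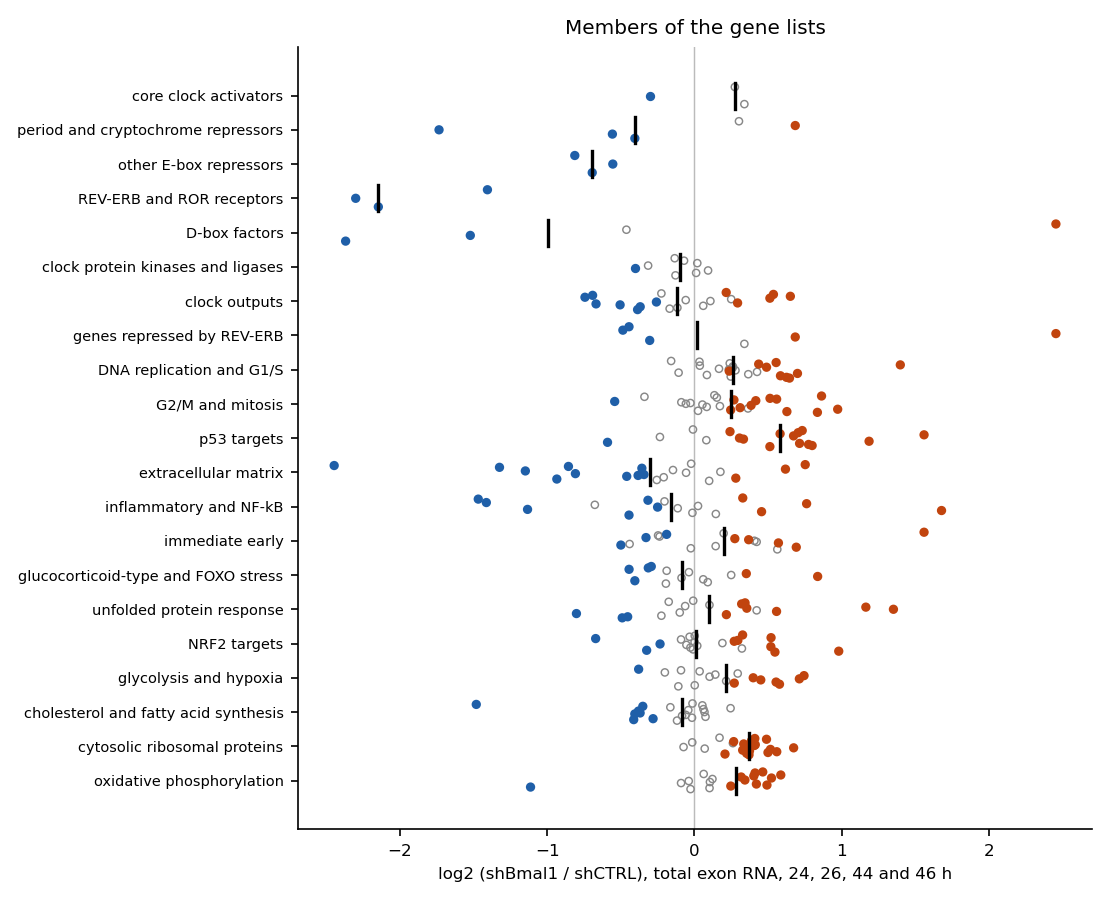
Log2 line difference of shBmal1 over shCTRL at 24, 26, 44 and 46 h (horizontal axis) for the tested members of gene lists (vertical axis); filled points passed an adjusted p under 0.05, open points did not, and bars are list medians. All REV-ERB and ROR members lie left of -1, no ribosomal protein gene passed on the lower side, and the D-box factors are split between Dbp and Nfil3.

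Fibroblast markers were present in all 8 libraries, with 8 of 9 in the table and a summed level of 3311 to 4122 RPKM in shCTRL and 3753 to 4316 in shBmal1. Of the 8, 4 fell and 1 rose. Pdgfra, a growth factor receptor that marks fibroblasts, was at 61.4, 71.0, 70.3 and 72.4 RPKM in shCTRL and 17.3, 21.5, 27.1 and 23.8 in shBmal1 (-1.73 ± 0.0816). Dcn, Pdgfrb (-0.75 ± 0.0596) and Thy1 (-0.67 ± 0.0684) also fell, and S100a4 rose by 0.20 ± 0.0592. Vim, the intermediate filament vimentin, was at 1555 to 2375 RPKM in shCTRL and 1893 to 2634 in shBmal1 and did not pass (0.11 ± 0.0672). Few markers of other cell types were analysed here. Of leukocyte markers 3 of 8 summed to 12.8 to 17.2 RPKM in shCTRL and 17.2 to 25.2 in shBmal1, with Lyz2, a lysozyme, higher by 0.74 ± 0.138. Muscle markers, 2 of 6, summed to 4.39 to 7.14 and 2.65 to 2.83 RPKM, with Mymx lower and Des, desmin, higher (1.21 ± 0.135). Adipocyte markers, 2 of 6, summed to 6.89 to 8.02 and 5.75 to 10.3 RPKM, with Plin4, a lipid droplet protein, lower (-0.43 ± 0.124), a call lost without 24 or 26 h (0.0669 and 0.0600) and at -0.28 without 24 h and -0.20 at 44 and 46 h alone. The endothelial marker Cdh5, 1 of 6, was at 0.234 to 0.533 and 0.321 to 0.920 RPKM, Krt14 was 1 of 9 epithelial markers, and 0 of 6 neural markers were analysed. Their part in the results was not tested. In bulk RNA, fewer cells of a type and less RNA per cell cannot be told apart.

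The hours fall into a first pair, 24 and 26 h, and a second pair, 44 and 46 h, and the line difference was not the same in both for some genes. This contrast was added after the data were seen. Of 10924 genes, 625 (5.72%) had a more positive line difference in the first pair and 443 (4.06%) a more negative one, at an adjusted p under 0.05 in limma. Of 23 replication and G1/S genes 17 were more positive and 0 more negative, with a median difference between pairs of 0.69. Mcm3, a subunit of the replicative helicase, was at 24.7, 28.3, 22.3 and 22.1 RPKM in shCTRL and 62.1, 58.9, 27.0 and 26.2 in shBmal1. It was high in the first 2 shBmal1 libraries and near the control in the others, a difference between pairs of 0.90 (adjusted p = 0.000912 in limma). Pcna, the sliding clamp of replication, was at 11.5 to 12.5 RPKM in shCTRL and 21.9, 23.2, 11 and 11.4 in shBmal1 (0.92). The list median of the line difference was 0.72, 0.63, 0.041 and -0.019 in order of time. Over the 4 hours 9 of the 23 rose and 0 fell, led by E2f2, Cdt1 and Mcm2 (1.40 ± 0.160, 0.70 ± 0.135 and 0.65 ± 0.137). At 24 and 26 h alone 21 were higher and 0 lower, at 44 and 46 h alone 4 were higher and 3 lower, and 14 were higher without 46 h. Without the hour as a factor 3 were higher.

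**Figure D4:**
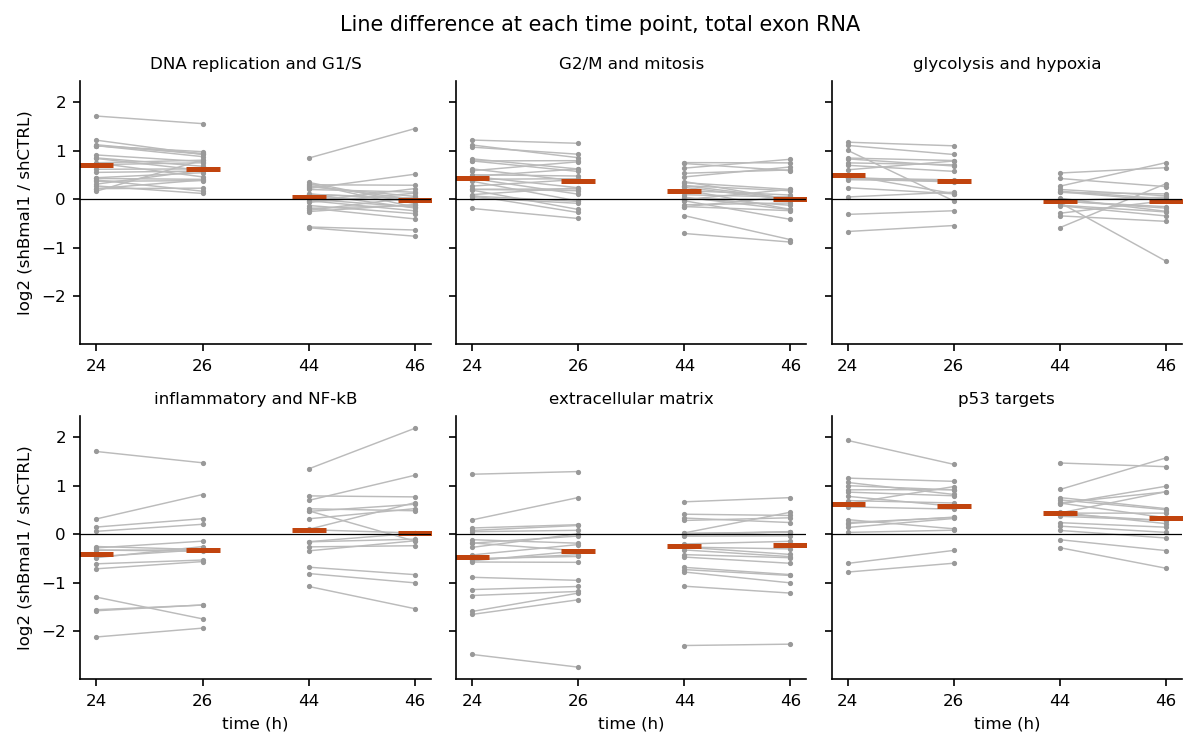
Log2 difference between the shBmal1 and shCTRL libraries (vertical axis) at 24, 26, 44 and 46 h (horizontal axis) for the tested members of 6 gene lists; points are genes and bars the list medians. The G1/S and glycolysis medians lie above 0 at 24 and 26 h and near 0 at 44 and 46 h, the inflammatory medians lie below 0 in the first pair only, and the p53 medians are above 0 at all 4 hours.

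G2/M genes were split in the same direction, with 6 of 23 more positive in the first pair and 0 more negative, and list medians of the line difference of 0.43, 0.38, 0.18 and 0.014 in order of time. Glycolysis genes were too. Of 17 glycolysis and hypoxia genes 9 were more positive and 1 more negative in the first pair, and over the 4 hours 7 rose and 1 fell, the stress-response gene Ndrg1 (-0.38). Ldha, lactate dehydrogenase A, was at 114, 119, 121 and 125 RPKM in shCTRL and 278, 279, 171 and 159.8 in shBmal1, a line difference of 0.74 ± 0.151 and a difference between pairs of 0.80. Pfkl, a phosphofructokinase, had 0.93 between pairs, and Pgk1, phosphoglycerate kinase, rose by 0.71 ± 0.0663 over all hours. Inflammatory genes had the opposite split, with 8 of 16 more negative in the first pair and 0 more positive. Cxcl1, a neutrophil chemokine, was at 107, 114, 101 and 111 RPKM in shCTRL and 75.7, 86.4, 147 and 182 in shBmal1, below the control at 24 and 26 h and above it at 44 and 46 h (-1.12, adjusted p = 0.000185 in limma). Vcam1, an adhesion molecule, Tlr2 and Nos2 had differences between pairs of -1.69, -1.12 and -1.41. Among the clock genes Per1, Cry1, Cry2 and Hlf were more negative in the first pair (-0.57, -1.05, -0.62 and -1.13), and the other 14 tested did not pass.

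These counts depended on single hours, and leaving one out leaves 1 residual degree of freedom. It also leaves a pair with a single library of each line, so no counts are given for those settings. Genes past the threshold were fewest without 24 h and most without 44 h. With each hour left out in turn, the G1/S list median of the difference between pairs stayed between 0.60 and 0.77. The glycolysis median stayed between 0.44 and 0.63, and the inflammatory median between -0.62 and -0.34.

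Newly made intron RNA from the same cultures gave a further readout at the same hours. Intron RPKM counts reads in unspliced RNA. Of 10536 genes tested, 1052 (9.98%) were higher and 983 (9.33%) lower in shBmal1 at an adjusted p under 0.05 in limma. This split depended on scaling: with RPKM as deposited, 1.08% of the genes that passed were higher, against 51.7% here. Of 16 clock genes tested 2 rose and 8 fell. The hours were the same chosen ones, so these clock counts are not independent of that choice either. Nr1d2, Dbp, Per3 and Tef fell by 1.83, 1.72, 1.39 and 1.35 on the log2(scaled RPKM + 0.02) scale. Rora, Nr1d1, Per2 and Bhlhe40 fell by 0.86, 0.79, 0.66 and 0.49. The Nr1d1 call was lost without 24, 44 or 46 h (0.0945, 0.116 and 0.0669) and without the hour as a factor (0.0817), and that of Bhlhe40 without 24, 44 or 46 h (0.0961, 0.116 and 0.0602). Nr1d1 had -0.79 ± 0.179 in intron RNA, beside -2.15 in total exon RNA and -1.77 ± 0.272 in 4sU exon RNA.

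The 2 clock genes that rose in intron RNA were Nfil3 and Arntl. Nfil3 had 2.01 ± 0.310 (adjusted p = 0.0163 in limma), and its call was lost without 24 or 44 h (0.0717 and 0.0832). Arntl had 1.52 ± 0.206 (0.00946 in limma), beside 0.34 in total exon RNA. Its mean intron RPKM as deposited was 0.309 in shCTRL and 0.665 in shBmal1. These means are not on a common scale, so their ratio is not that difference. The Arntl intron call was lost without 44 h (0.0553). Low Arntl in the control was part of the choice of hours, so its intron difference and p-value are not independent of that choice. Cry1 (0.68 ± 0.234), Per1 (-0.30 ± 0.0880) and Clock (0.19 ± 0.0704) did not pass in intron RNA.

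**Figure D5:**
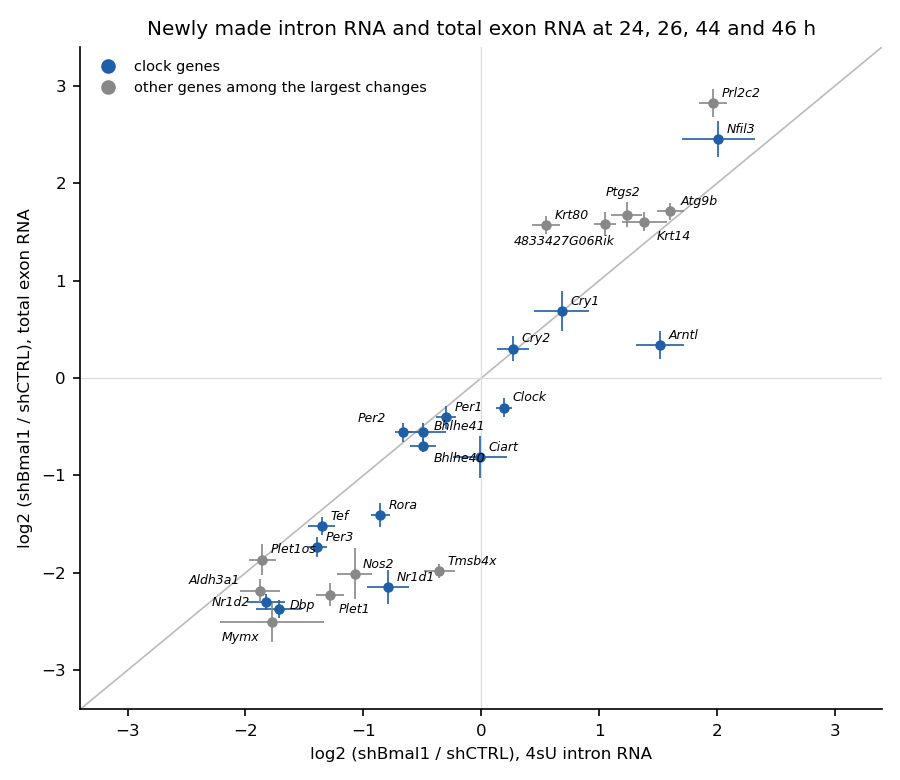
Log2 line difference of shBmal1 over shCTRL at 24, 26, 44 and 46 h in total exon RNA against 4sU intron RNA, for the clock genes and the genes with the largest changes that were tested in both; points are limma estimates, bars standard errors, and the diagonal marks equal differences. Arntl lies on the side of a larger intron difference, and Tmsb4x and Nr1d1 have intron differences of -0.36 and -0.79 beside exon differences of -1.98 and -2.15.

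Of the leading genes outside the clock, Aldh3a1, Plet1os, Plet1 and Nos2 fell in intron RNA too, by 1.88, 1.86, 1.28 and 1.07 on the log2 scale. Prl2c2, Atg9b, Krt14, Ptgs2 and 4833427G06Rik rose, by 1.97, 1.61, 1.38, 1.23 and 1.05. Krt80 had 0.55 and passed, but not without 24 or 26 h (0.0709 and 0.0667). With RPKM as deposited, where the lines are not on a common scale, Krt80 had 0.027 (0.852). Tmsb4x and Mymx did not pass in intron RNA (-0.36 ± 0.131 and -1.78 ± 0.444), whereas in 4sU exon RNA they had -1.69 ± 0.249 and -2.15 ± 0.131. Acly had -1.48 in total exon and -0.32 ± 0.0976 in intron RNA, which did not pass. Among the lists, 10 of 17 p53 targets, 10 of 23 ribosomal protein genes and 9 of 23 G2/M genes were higher in intron RNA, against 9.98% of all genes. Of the G1/S genes 2 of 23 were higher, near that share. Whether the exon and intron differences of a gene differ from each other was not tested.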

How the data were processed

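The deposited tables used were exon and intron, each with 11313 gene symbols in 48 libraries. Their values are RPKM that the authors made with HOMER 4.11.1 after Trim Galore, on mm10 (GRCm38.p6), per the submitters' processing notes. Which aligner was used is not stated in the labels or headers. RefSeq's annotation supplied coordinates for 10747 symbols.

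Read totals and transcript lengths were recovered from the steps between RPKM values, with lengths called equal within 0.1%. Intron totals were 1.36 to 1.38 times the exon totals in the 4 shBmal1 4sU libraries used and equal to them in the other libraries used, so deposited intron values were not on 1 scale.

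RPKM were scaled by median ratios (factors 0.951 to 1.08 for the 8 total RNA libraries). After a pseudocount of 0.1 (introns 0.02) and log2, limma 3.58.1 (R 4.3.3) was fitted with line and time point, using trend and robust variance. The time point is the block that the lines share. A mean of 0.5 exon or 0.1 intron RPKM was required, and p-values were adjusted over all genes by Benjamini-Hochberg. List members were counted by the adjusted p alone, under 0.05. The scripts were tested on simulated data.

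Named were the clock list members, the 10 largest rises and 10 largest falls (1 length, mean of at least 1 RPKM, no overlap after scaling), 3 leading members per other list and 6 phase differences per direction. Other genes were named after their values were seen. The members and lists were chosen with earlier results of these data known. Alternatives covered pseudocount, filter, scaling, block, variance model, transcript length and each hour left out. The yeast spike-in was not analysed here, and a few genes that the counts include are not reported here by name. The labels do not say that libraries came from separate cultures beyond their hour, so p-values measure only the spread between these libraries, which may be technical.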

Additional observations from a re-analysis of the deposited data

Results flagged for a closer look

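Single libraries stood far from the other 3 of their line in 6 of 90 groups of 4 tested, where chance flags about 1 in 20. In the shBmal1 library at 46 h these were Per1 at 21.6 RPKM, Nfil3 at 21.7 RPKM and Ptgs2 at 28 RPKM. In the shBmal1 library at 24 h they were Bhlhe41 at 1.94 RPKM and 4833427G06Rik at 3.09 RPKM, and in that at 44 h Sh3pxd2b at 31.1 RPKM. Distance was judged after scaling and against the range of the 4 libraries, while the levels given are RPKM as deposited. For Sh3pxd2b the deposited shBmal1 levels were 28.7, 29.6, 31.1 and 27.7 RPKM in order of time, so the distance was small in size. The part of RNA quality, culture and stress in the 46 h library was not tested.

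The line difference of 20 genes differed between the low and the opposite phase in limma at an adjusted p under 0.05. Of those given here, it was more negative at the low phase for Dbp (-2.05), Per2 (-1.50), Tef (-1.48), Nr1d2 (-1.08), Per3 (-1.06), Per1 (-0.97), 0610040F04Rik (-0.96), Bhlhe40 (-0.91), Sphk2 (-0.73) and Slc6a6 (-0.59). It was more positive for Sh3pxd2b (0.66), Sash1 (0.72), Mmp11 (0.74), Saa3 (0.79), Hk2 (0.79), Cyp26b1 (0.84), Adamts4 (0.99), Nfil3 (2.20) and Arntl (2.22). The hours were picked from the control rhythm of Arntl and Dbp. The clock genes named here therefore describe that choice and are not independent support. Against all other 8 time points, 2 genes were positive and 1 negative. Between the first and second pair of hours, 625 genes differed in the positive and 443 in the negative direction, in a contrast added after the data were seen.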

How the results depend on the processing

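In total exon RNA, 105 genes were higher and 176 lower past both thresholds. A pseudocount 10 times larger gave 47 and 100, a minimum mean 4 times higher gave 68 higher, genes with 1 transcript length 66 higher, and 24 and 26 h alone 293 lower. Leaving out 1 hour gave 101 to 118 higher and 157 to 214 lower. In the difference between phases, 9 genes were positive and 11 negative. Without the time point as replicate block there were 5 and 5, without trend and robust variance 3 positive, against all other 8 time points 2 and 1, and without 1 hour 2 to 10 and 6 to 11. For 4sU introns the counts past both thresholds were 64 and 36: 36 and 20 with the larger pseudocount, 29 and 320 as deposited, 32 and 20 with 1 length, 26 and 13 at 24 and 26 h alone, and 52 to 78 and 31 to 41 without 1 hour. By the adjusted p alone, upper quartile scaling gave 46.5% higher in total exon and 743 higher and 1577 lower genes in intron RNA. The median of all genes moved to 0.106 and -0.512 with RPKM as deposited, where the intron values of the lines are not on a common scale. Cry2 reversed at 24 and 26 h alone (-0.0131, adjusted p = 0.887 in limma) and Hlf at 44 and 46 h alone (0.103, 0.742), neither past the threshold. Of 1266 values for 80 genes in total exon RNA, 1212 kept direction and call, 42 lost the call, 10 gained it and 2 reversed. Of 359 for the phase genes 259 kept it and 100 lost it, and of 308 in intron RNA 268 kept it and 40 lost it. Without the time point as replicate block, calls lost at adjusted p from 0.0505 to 0.206 included those of Clock, Per1, Per2, Cry1, Ciart, Ube2c, Cdk1, Saa3, Chac1 and Nqo1 in total exon RNA, and those of Per2, Nr1d1, Nos2, Prl2c2, Krt14 and Krt80 in intron RNA. The causes were not tested. Depth limits genes with few reads, such as Gm50147.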
